A study of Rattus norvegicus and Ovis aries with 113 samples.

Results

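The circadian clock genes described here are 10 genes taken by their symbols: CLOCK, BMAL1, PER1, PER2, PER3, CRY1, CRY2, NR1D1, NR1D2 and DBP. All 10 were found under these symbols among the 31304 genes of the sheep count tables and the 38675 genes of the rat count tables, and all 10 passed the filter on low counts in every comparison below. RNA was sequenced from the brain and the reproductive system of animals that had received no treatment. The sheep were 5 post-pubertal males (numbered 687, 688, 690, 694 and 699), each with 10 dissected brain regions from the same hemisphere and a sperm sample, and the labels name no breed or genotype. The rats were Sprague Dawley animals: 15 post-pubertal males with whole brain and sperm, and 14 females with whole brain and ovary. Sperm in the rat came from seminal fluid, and whole brains, ovaries and semen hold many cell types. The hour of death, the light cycle and the stage of the oestrous cycle are not stated in the labels or the design text. The sexes were not compared.

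The mammalian clock is a feedback loop of transcription that runs in nearly every tissue with a period of about a day. CLOCK and BMAL1 form a dimer that binds E-boxes and activates the Period (PER) and Cryptochrome (CRY) genes, whose proteins return to the nucleus and repress the dimer. The nuclear receptors NR1D1 and NR1D2 (REV-ERB alpha and beta) are activated by the same dimer and repress BMAL1 through ROR elements, so that BMAL1 transcripts peak when those of NR1D1 are low. DBP is an output gene, a transcription factor that is activated through E-boxes and binds D-boxes. PER1 and PER2 also respond quickly to light, stress hormones and neuronal activity, and clock genes are known to be rhythmic in the brain and in the granulosa and luteal cells of the ovary.

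Promoter sequence was read for the rat members from RefSeq (GRCr8), as the 250 bases before each annotated start, because the loop acts through short motifs there. The tables held 11 such windows for 9 members, and none for Cry1. Both strands were searched for the E-box CACGTG, the E-prime box CACGTT, the D-box (TTATGTAA, TTACATAA or TTACGTAA), the ROR element (TAGGTCA or TGGGTCA) and the cyclic AMP element TGACGTCA. The 6 matches are shown in 30 bases each, 5′ to 3′ on the gene's strand, with the match in capitals.
Bmal1 ROR element, chr1:176766298-176766327 (+): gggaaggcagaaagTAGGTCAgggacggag
Per2 E-prime box, chr9:99497038-99497067 (-): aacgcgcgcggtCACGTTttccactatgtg
Per2 D-box, chr9:99497167-99497196 (-): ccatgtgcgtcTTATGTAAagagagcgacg
Cry2 E-prime box, chr3:98860632-98860661 (-): acacatggtgggAACGTGagggggcggggc
Nr1d1 E-prime box, chr10:84231969-84231998 (-): cgcatagagctcAACGTGcccgctgctgga
Nr1d1 E-box, chr10:84229628-84229657 (-): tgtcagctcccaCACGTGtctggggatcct
The E-prime box was in 3 of the 11 windows, while the E-box, the D-box and the ROR element were each in 1 and the cyclic AMP element in 0. Over all 33469 promoters of the same length these letters were found in 4.07% (E-prime box), 5.59% (E-box), 0.932% (D-box), 5.62% (ROR element) and 1.59% (cyclic AMP element). The E-prime box of Cry2 lay upstream of the annotated gene (chr3:98830479-98860437). The E-box of Nr1d1 lay within the annotated gene (chr10:84224599-84231812), before a start inside it, and the E-prime box of that gene lay upstream. Both Per2 matches lay before 1 start, which is inside the annotated gene (chr9:99454828-99497069): the D-box lay upstream of that span and the E-prime box just inside it. The ROR element of Bmal1 lay inside its span (chr1:176766222-176864741). Windows without a match also lay inside annotated genes: the only window of Per1 (chr10:54304126-54304375), that of Per3 (chr5:166777801-166778050) and 1 of Clock (chr14:32300295-32300544). The bases before the annotated Per1 and Per3 genes were therefore not searched. A match describes the letters only, and a window without a match does not describe the rest of a promoter. The remaining rat members are annotated at chr14:32262747-32346872 (Clock), chr10:54299002-54313804 (Per1), chr5:166740914-166778243 (Per3), chr7:20417526-20481791 (Cry1), chr15:9955034-9981329 (Nr1d2) and chr1:105312256-105317205 (Dbp). Nr1d1 overlaps Thra, and Clock, Per2, Cry1 and Cry2 each overlap 1 or 2 genes that carry placeholder names, so reads from these pairs may be hard to separate, since no source used here states the strand setting of the counting.

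Total counts per library ran from 46.7 to 72.4 M (1 M is 1000000 counts) in sheep brain, 13.7 to 65.1 M in sheep sperm, 38.2 to 102 M in male rat brain, 45.2 to 119 M in female rat brain, 50.5 to 60.3 M in ovary and 13.7 to 65.1 M in rat sperm. Levels are counts per 1000000 counts (CPM) scaled with the trimmed mean of M values (TMM), and are compared between samples of a gene, never between genes. The scaling factor was far below 1 in all 5 sheep sperm libraries (0.114 to 0.305), in female rat brain 1 (0.0688) and in male rat brain 4 (0.12), so these brain libraries stood apart from the rest. Where leaving them out changed a call, the value without them is given. As a check of the tissue labels, the 4 neuronal genes summed to 2878 to 4648 CPM in the rat brains, and to 0.0539 to 6.22 CPM in rat sperm and 4.04 to 30.5 CPM in ovary. All 8 spermatid and sperm genes were found at 1 CPM or more on average in the sperm of both species, but in sheep sperm the neutrophil genes (median sum 54200 CPM) and squamous genes (16120 CPM) exceeded them (2683 CPM). In bulk samples, fewer cells of a type and less RNA per cell cannot be told apart.

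All 10 clock genes differed between the 10 regions of the sheep brain (edgeR's quasi-likelihood F test of region over the 50 brain libraries, Benjamini-Hochberg adjusted over 21147 genes). This test called 76.7% of all genes, so that passing it did not set the clock genes apart. The fold between the highest and the lowest region was largest for PER2 (4.37-fold), DBP (3.34-fold) and CRY1 (3.07-fold), and the smallest were 1.62-fold for PER1 and 1.69-fold for CLOCK. The median over the members was 1.36 on the log2 scale, beside 1.26 over all genes tested. CLOCK had the highest adjusted p (0.004592), and without sheep 690 it was not called (0.07258).

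**Figure D1:**
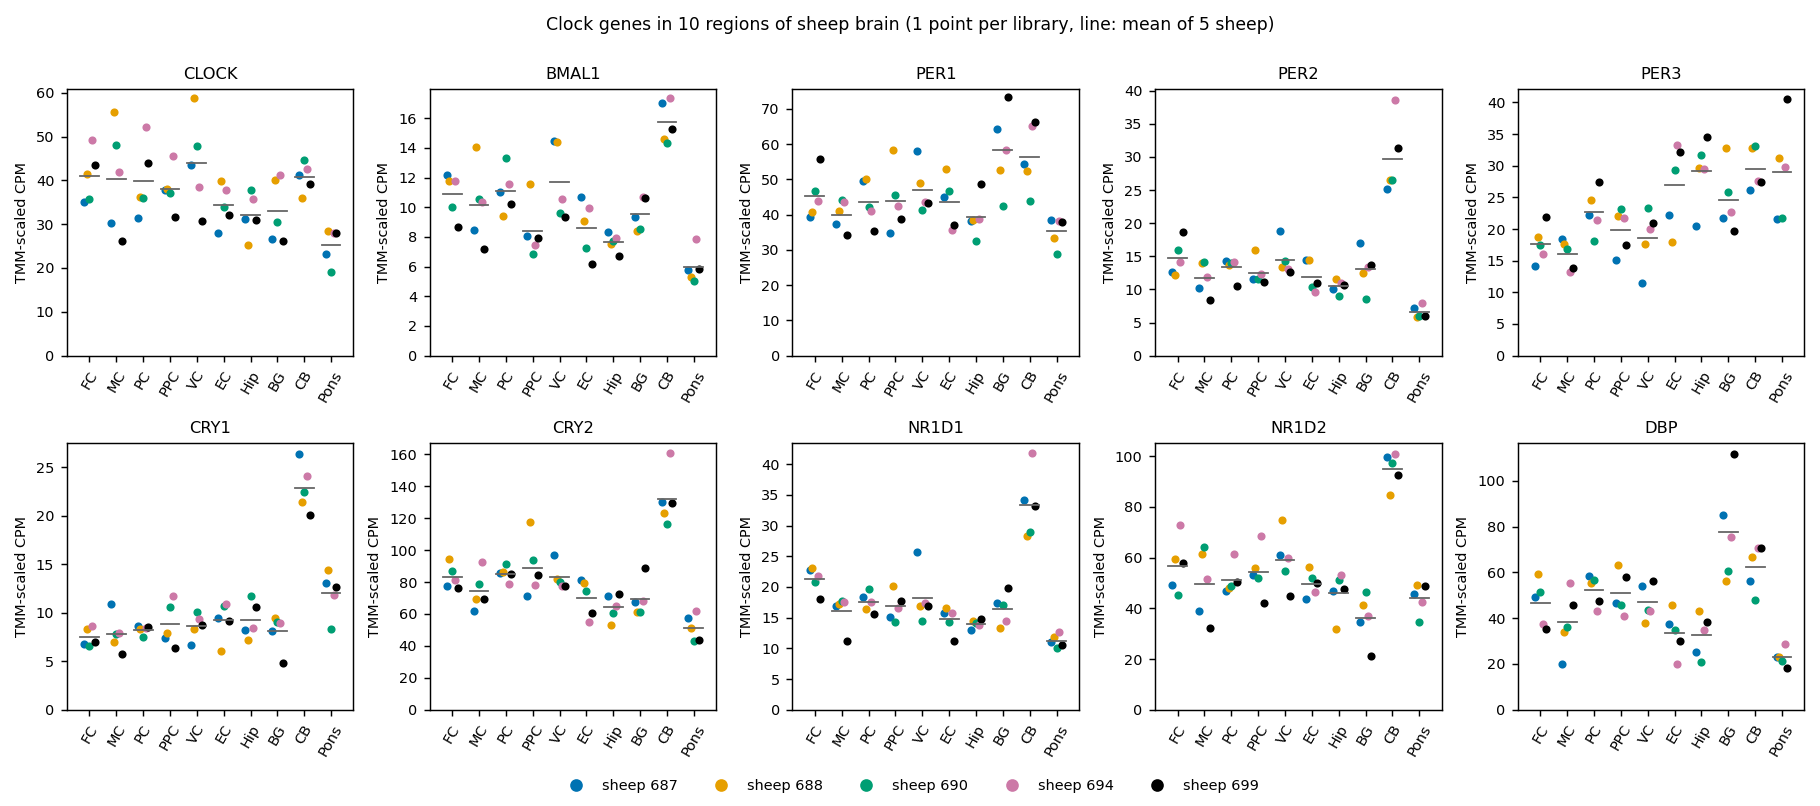
Level of each clock gene (vertical axis, TMM-scaled CPM) in 10 sheep brain regions (horizontal axis: FC frontal, MC motor, PC prefrontal, PPC posterior parietal, VC visual and EC entorhinal cortex, Hip hippocampus, BG basal ganglia, CB cerebellum, Pons), 1 point per library coloured by sheep, with a line at the mean of 5 sheep. In the cerebellum, PER2, CRY1, NR1D1 and NR1D2 lie above every library of the other regions, and in the pons PER2 lies below every library of the other regions.

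The cerebellum was the region in which clock genes stood highest: 9 of the 10 members were higher there than in the mean of the other 9 regions, and CLOCK was not called. Over all genes this contrast called 60.7%, of which 29.1% of all were higher and 31.6% lower. The members' median difference was 0.79 on the log2 scale, beside -0.045 over all genes tested. The largest differences were those of CRY1, PER2, NR1D1 and NR1D2, which are repressors, as are most of the members. The smallest that were called, PER1 (log2 0.35) and PER3 (0.38), were those of repressors as well.

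CRY1, which binds and inhibits the CLOCK and BMAL1 dimer, measured 26.4, 21.4, 22.4, 24.1 and 20.1 CPM in the cerebella of sheep 687, 688, 690, 694 and 699. In the other 9 regions the mean CRY1 level lay between 7.47 CPM (frontal cortex) and 12.1 CPM (pons). Every cerebellum was above every other library, and the difference was 2.57-fold (log2 1.36 ± 0.12 SE, edgeR adjusted p = 1.168e-13).

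PER2, a repressor whose transcript also answers to light and hormones, measured 25.2, 26.5, 26.6, 38.6 and 31.4 CPM in the same order of sheep. Its next highest region mean was 14.7 ± 2.65 CPM (SD, n = 5) in frontal cortex, so the groups did not overlap. The difference was 2.48-fold (log2 1.31 ± 0.10 SE, edgeR adjusted p = 6.272e-15).

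NR1D1, the repressor of BMAL1, measured 34.1, 28.3, 29.0, 41.8 and 33.2 CPM in the cerebella, and 21.3 ± 2.02 CPM (SD, n = 5) in the frontal cortex, its next highest region. Its paralogue NR1D2 measured 99.8, 84.6, 97.2, 101 and 92.7 CPM there, and 59.1 ± 10.9 CPM (SD, n = 5) in visual cortex. Both were above every library of the other regions. NR1D1 was 2.05-fold higher (edgeR adjusted p = 5.619e-14) and NR1D2 1.91-fold higher (1.96e-09). Thus 4 of the 10 members did not overlap with the other regions, whereas 6.73% of all genes tested were higher without overlap.

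The activator BMAL1 was also higher in the cerebellum, at 15.7 ± 1.37 CPM (SD, n = 5) against 11.7 ± 2.57 CPM in visual cortex, the next region (0.76 ± 0.11 on the log2 scale against all 9, edgeR adjusted p = 3.975e-08). CRY2, the second cryptochrome, stood at 132 ± 17.0 CPM there and at 89.0 ± 18.0 CPM in posterior parietal cortex (0.82 ± 0.09 log2, 4.974e-11). Their cerebellar ranges overlapped with those of other regions. DBP (0.54 log2, edgeR adjusted p = 0.002164), PER3 (0.38, 0.01202) and PER1 (0.35, 0.003067) were higher by smaller amounts. PER1 was not called without sheep 694 (0.05299), nor PER3 without sheep 690 (0.05872). CLOCK differed by 0.16 (0.2636).

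The makeup of the cerebellum differed from the other regions in the same libraries. All 4 neuronal markers were higher there, with summed levels of 3163 to 3594 CPM, while all 4 microglial and all 4 endothelial markers and 3 of 4 astrocyte markers were lower. Of 6 genes that respond to glucocorticoids 5 were lower, and of 7 immediate early genes, which mark recent activity, 2 were lower and 0 higher. Their part in the clock gene levels was not tested.

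In the pons the clock genes ran mostly the other way: 7 of 10 were lower than in the mean of the other 9 regions, and 2 were higher. Over all genes 48.3% were called, 22.6% lower and 25.7% higher. The members' median was -0.59 on the log2 scale, beside 0.031 over all genes tested.

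PER2 measured 7.12, 5.87, 5.93, 7.92 and 5.96 CPM in the pons of sheep 687, 688, 690, 694 and 699. All 5 lay below every other brain library, and 1.83% of all genes were lower without overlap. The level was 2.08-fold lower than in the other regions (log2 -1.05 ± 0.13 SE, edgeR adjusted p = 3.436e-09).

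DBP, the output gene, measured 23.0, 23.2, 21.4, 28.9 and 18.3 CPM in the same order, which overlapped with the lowest values of hippocampus, entorhinal and motor cortex. It was 2.02-fold lower (log2 -1.01 ± 0.17 SE, edgeR adjusted p = 5.211e-06). BMAL1 was lower by 0.74 on the log2 scale (1.66-fold, 2.382e-06), NR1D1 by 1.57-fold (6.905e-07), CRY2 by 1.55-fold (8.997e-07), CLOCK by 1.46-fold (0.0005053) and PER1 by 1.27-fold (0.007926). The pons therefore held the lowest mean of BMAL1, CLOCK, PER1, PER2, CRY2, NR1D1 and DBP among the 10 regions.

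PER3 (log2 0.41, edgeR adjusted p = 0.008465) and CRY1 (0.39, 0.009668) were the members that stood higher in the pons. Both calls depended on single animals. Without sheep 699 neither was called (0.1463 for PER3 and 0.05814 for CRY1), and CRY1 was not called without sheep 688 either (0.09671). The oligodendrocyte markers were higher in the pons (4 of 4, sums of 14960 to 74360 CPM), and the neuronal markers were lower (3 of 4, sums of 255.5 to 1783 CPM). Of the 4 astrocyte markers 2 were higher and 1 was lower, and their sum was 12670 to 17430 CPM in the pons, above every library of the other regions (at most 9155 CPM, in entorhinal cortex). The oligodendrocyte sum overlapped with motor cortex, which reached 27100 CPM. Of the immediate early genes 4 were lower and 1 was higher. Their part in the lower and higher clock gene levels of the pons was not tested.

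In the basal ganglia DBP and PER1 had their highest region means and NR1D2 its lowest. This contrast called 27.6% of all genes, 14.6% higher and 13% lower, and the members' median was -0.038 on the log2 scale, beside -0.0081 over all genes. DBP measured 85.2, 56.2, 60.7, 75.3 and 112 CPM in sheep 687, 688, 690, 694 and 699, and was 1.90-fold higher than in the other regions (log2 0.92 ± 0.15 SE, edgeR adjusted p = 2.234e-06). Its second highest region was the cerebellum at 62.4 ± 10.1 CPM (SD, n = 5), and these 2 regions overlapped. PER1 stood at 58.2 ± 11.7 CPM (SD, n = 5) and was 1.35-fold higher (0.000869), close to its cerebellar mean of 56.4 ± 9.47 CPM. NR1D2 stood at 36.1 ± 9.46 CPM (SD, n = 5) and was lower by 0.59 on the log2 scale (0.0004513). Among the markers 2 of 4 neuronal genes were lower and 2 of 4 microglial genes higher, and their part was not tested.

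Differences among the remaining regions were small. In the hippocampus, where 11% of all genes were called (7.15% higher and 3.83% lower), BMAL1 (log2 -0.37, edgeR adjusted p = 0.03486), CRY2 (-0.30, 0.03732) and NR1D1 (-0.33, 0.02345) were lower and PER3 was higher (0.39, 0.04503). In the frontal cortex, where 7.85% were called (5.73% higher and 2.12% lower), NR1D1 was higher (0.32, 0.02545), and PER3 (-0.44, 0.04839) and CRY1 (-0.43, 0.04159) were lower. In the motor cortex (3.55% of all genes called, 0.619% lower) PER3 was lower (-0.58, 0.01287). Each of these 8 calls was lost when any of at least 4 single sheep was left out, with adjusted p of up to 0.2019. No member was called in prefrontal (6.31% of all genes called), posterior parietal (10.4%), visual (5.65%) or entorhinal cortex (3.36%). Of the 29 calls over all regions, 17 were made under each of the 11 other settings tried with the same threshold, and those 17 were in the cerebellum, the pons and the basal ganglia. Between neighbouring regions in the order of means, such as visual, prefrontal and frontal cortex for BMAL1 (11.7, 11.1 and 10.9 CPM), the spread between sheep was larger than the gap.

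Differences between the 5 sheep over all their regions were small beside those between regions. With region in the model, 0 of the 10 members were called between sheep by edgeR, whereas 21.6% of all genes were. At an unadjusted p below 0.05 there were 3 (CLOCK, BMAL1 and PER3), DESeq2 called 1 (CLOCK, adjusted p = 0.03176), and limma's voom with quality weights called 4 (CLOCK 0.005556, BMAL1 0.01245, PER3 0.001743 and NR1D2 0.04061). The edgeR value for CLOCK was 0.05034, and it was called without sheep 688 (0.03385) or without sheep 690 (0.04851). Averaged over the regions, CLOCK lay between 32.8 CPM in sheep 687 and 41.3 CPM in sheep 694, and CRY2 between 78.7 and 81.8 CPM. The median of the largest log2 differences between sheep was 0.24 for the members and 0.40 for all genes. The 10 libraries of a sheep share its death, handling and hour of collection.

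Some pairs of clock genes nevertheless varied together between the libraries of a region. After each region's mean was removed, the 45 pairs had a median Pearson r of 0.16 over the 50 libraries (-0.54 to 0.81), and 7 pairs reached 0.5 in size. Of the 45 pairs 26 were positive. The share of all gene pairs that reach 0.5 was not counted, so whether these 7 set the members apart is not known. Ranked by rho among 11148 genes, CRY2 was 720th for DBP (0.62) and NR1D1 was 150th for BMAL1 (0.66). These are descriptions without a test, since 10 libraries come from each sheep and share its depth and dissection. CLOCK and NR1D2 had r = 0.81 and were positively related in 10 of 10 regions, and PER1 and PER2 had r = 0.76, again in 10 of 10. BMAL1 and NR1D1 had r = 0.66 (positive in 9 of 10 regions), and their region means were also parallel, with r = 0.92 over the 10 regions. BMAL1 and its repressor thus ran in parallel across these libraries. PER1 with CRY2 (0.66), CRY2 with DBP (0.64) and PER3 with CRY1 (0.59) were positive, and CRY1 with DBP was the inverse pair (-0.54, negative in 9 of 10 regions).

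Clock gene levels were lower in sheep sperm than in sheep brain: 9 of the 10 members were lower than in the mean of the 10 regions and BMAL1 was not called (edgeR, all 55 sheep libraries, adjusted over 21859 genes). Over all genes 83.4% were called, 46.3% lower and 37.1% higher. The members' median was -1.96 on the log2 scale, beside -0.418 over all genes tested. Scaling matters here: the median over all genes moved by 0.25 with DESeq2's size factors (RLE) and by 0.73 with upper quartile factors, under which the share of higher calls went from 44.5% to 55.3%.

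PER2 and NR1D1 were close to the limit of detection in sperm, and CRY1, DBP and CRY2 rested on 87, 101 and 126 counts over the 5 libraries. PER2 was counted 7 times over the 5 libraries, all in sheep 688 (0.565 CPM). In the other 4 libraries it had 0 counts, which allows up to 0.333 to 0.987 CPM at 3 counts (counting error only). NR1D1 was counted 22 times over the 5 libraries, with 3 at 0, and the 2 others at 1.37 CPM (sheep 688) and 0.561 CPM (sheep 699).

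CRY2 measured 0.671, 3.15, 2.63, 1.99 and 6.29 CPM in the sperm of sheep 687, 688, 690, 694 and 699, against brain means of 78.7 to 81.8 CPM per sheep. DBP measured 5.50, 2.67, 0.658, 0.665 and 2.13 CPM in the same order, against 42.0 to 51.2 CPM. All sperm libraries were below all brain libraries for PER2, CRY2, NR1D1, NR1D2 and DBP, and 25.7% of all genes tested were lower without overlap. The fitted log2 differences were -6.29 ± 0.36 (SE) for PER2, -5.12 ± 0.33 for NR1D1, -4.70 ± 0.24 for CRY2 and -4.18 ± 0.30 for DBP (edgeR adjusted p = 5.598e-22, 5.688e-20, 8.39e-24 and 5.582e-18). Those of PER2 and NR1D1 rest on few counts and depend on the small count added in the fit.

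Another group of members was nearer to the brain level. NR1D2 measured 6.91 to 20.0 CPM in sperm and was 3.52-fold lower (edgeR adjusted p = 1.572e-13). CRY1 had 0 counts in sheep 687 and 0.969 to 5.65 CPM in the other 4. CRY1 (4.16-fold, 9.219e-08), PER3 (3.65-fold, 1.143e-08) and CLOCK (2.17-fold, 2.368e-08) were lower as well, although single sperm libraries overlapped with brain. PER3 ran from 0.987 CPM in sheep 690 to 15.6 CPM in sheep 687. CLOCK was not called with upper quartile factors (-0.32 log2, adjusted p = 0.05922).

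BMAL1 and PER1 gave no stable difference in sheep sperm. BMAL1 measured 10.9, 7.59, 6.91, 17.2 and 7.30 CPM in sperm, a mean of 9.97 CPM beside 9.97 CPM in brain, and the fitted difference was 0.057 ± 0.15 on the log2 scale (edgeR adjusted p = 0.73). It was higher with RLE factors (0.35, 0.03306), DESeq2 (0.35, 0.03574) and upper quartile factors (0.85, 5.941e-07), and it turned to -0.16 without sheep 694 (0.3678). PER1 was lower by 0.37 (0.0252), turned to 0.31 with upper quartile factors (0.02386), and was not called without sheep 687 (0.2595), 690 (0.08381), 694 (0.1016) or 699 (0.09047). Relative to the median of all genes, BMAL1 stood at 0.48 to 0.54 and PER1 at 0.0020 to 0.045 under the 3 scalings. On plain totals every member was lower, for example BMAL1 at 2.26 CPM in sperm and 11.8 CPM in brain.

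The sheep sperm libraries held RNA of other cells. The 4 neutrophil markers summed to 13810 to 158500 CPM there and the squamous epithelial markers to 3613 to 72160 CPM, beside 198.2 to 6892 CPM for the 8 spermatid and sperm genes. Neutrophil genes summed to 0.1425 to 0.3036 CPM in the cerebellum. Neuronal markers summed to 2.42 to 116 CPM. Their part in the clock gene levels was not tested.

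**Figure D2:**
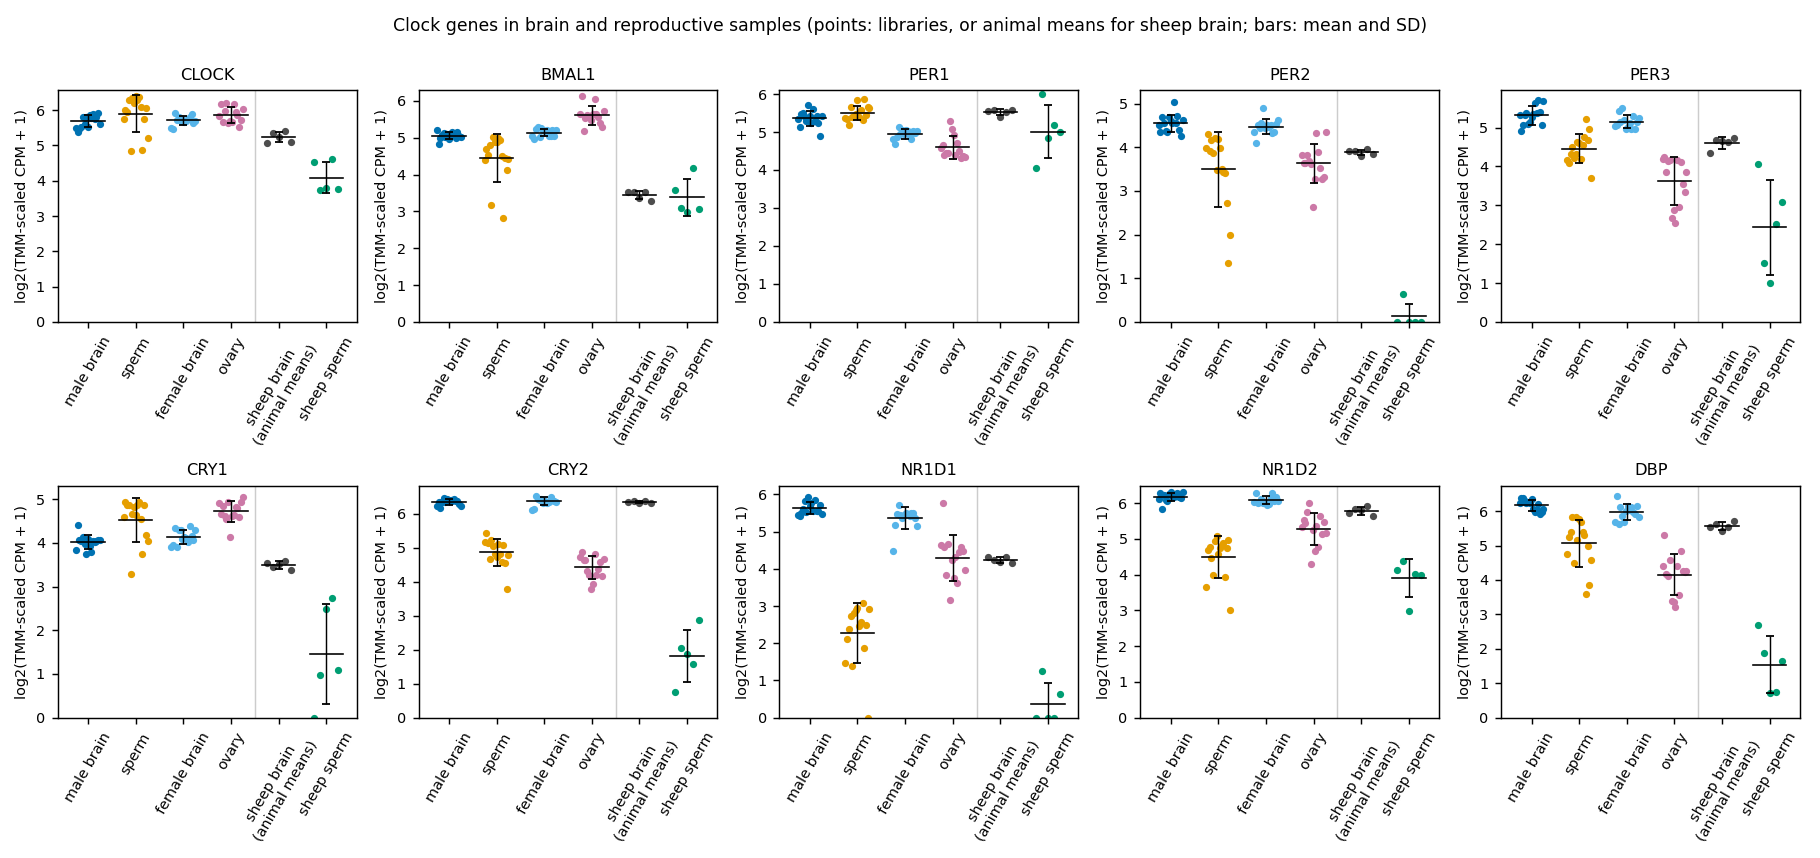
Clock gene levels as log2(TMM-scaled CPM + 1) (vertical axis) in rat male brain, sperm, female brain and ovary and in sheep brain (mean of 10 regions per animal) and sheep sperm (horizontal axis), with points for libraries or animals and bars for mean and SD. CRY2 and DBP lie below brain without overlap in rat sperm, rat ovary and sheep sperm, while rat and sheep values were scaled separately and are not compared.

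In rat sperm, 7 clock genes were lower and 3 were higher than in male rat brain (15 libraries each, edgeR adjusted over 20480 genes). Over all genes 77% were called, 39.2% lower and 37.8% higher. The members' median was -0.85 on the log2 scale, beside -0.032 over all genes tested. RLE factors moved the median of all genes by -0.24.

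NR1D1 was the member with the largest difference. It measured 0 to 7.41 CPM in sperm, with a median of 4.57 CPM, and 41.8 to 59.6 CPM in male brain, with a median of 46.5 CPM. Sperm library 16 had 0 counts, which allows up to 0.0866 CPM at 3 counts. The groups did not overlap and NR1D1 was 10.7-fold lower (log2 -3.42 ± 0.34 SE, edgeR adjusted p = 1.202e-10).

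NR1D2 (7.01 to 32.8 CPM in sperm, median 25.8, against 56.6 to 78.3 in brain, median 72.5) was 3.05-fold lower (edgeR adjusted p = 2.301e-11). CRY2 (12.8 to 42.5 CPM, median 27.2, against 71.6 to 87.2, median 81.7) was 2.67-fold lower (1.401e-12). DBP (11.2 to 55.8 CPM, median 36.7, against 59.0 to 82.3, median 73.8) was 1.96-fold lower (6.33e-06). For these 3 genes and NR1D1 the groups did not overlap, and 23.4% of all genes were lower without overlap.

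PER2 was 1.86-fold lower (edgeR adjusted p = 0.0008255) and PER3 1.75-fold lower (1.591e-06), and both were lower in 15 of 15 animals when sperm and brain of the same number were set side by side. BMAL1 was 1.41-fold lower (0.004356), in 14 of 15. CRY1, at a median of 24.1 CPM in sperm and 15.4 CPM in brain, was higher by 1.55-fold (8.129e-05) and in 12 of 15 animals. CLOCK (0.32 log2, 0.02474) and PER1 (0.19, 0.04402) were called higher only under part of the settings. CLOCK was 0.025 with RLE factors (0.8313), and PER1 turned to -0.035 (0.7896). With the animal number as a block their adjusted p were 0.09548 and 0.07581. PER1 was not called without sperm libraries 16 and 17 (0.067), or without male brain 4 (0.07645).

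Rat sperm libraries differed widely in makeup. The 8 spermatid and sperm genes summed to 313.5 to 25270 CPM, while the microglial markers, which blood phagocytes share, reached 613 CPM, the squamous markers 126 CPM and the neutrophil markers 32.0 CPM at most. The part of these cells in the clock gene levels was not tested.

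In the ovary, 7 clock genes were lower and 3 were higher than in female rat brain (14 libraries each, edgeR adjusted over 20801 genes). Over all genes 88.6% were called, 43.9% lower and 44.7% higher. The members' median was -0.80 on the log2 scale, beside 0.0195 over all genes tested.

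CRY2 had the largest difference. It measured 12.7 to 28.5 CPM in ovary, with a median of 21.3 CPM, and 68.2 to 91.5 CPM in female brain, with a median of 82.7 CPM. Ovary lay below brain without overlap, and CRY2 was 3.87-fold lower (log2 -1.95 ± 0.10 SE, edgeR adjusted p = 9.869e-18).

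DBP measured 8.32 to 38.2 CPM in ovary (median 18.0) and 48.8 to 85.7 CPM in brain (median 62.3), and was 3.42-fold lower (edgeR adjusted p = 4.557e-11). PER3, a period gene that is dispensable for the core loop, measured 4.79 to 18.1 CPM in ovary (median 13.5) and 30.1 to 44.1 CPM in brain (median 34.0), and was 2.81-fold lower (3.028e-09). CRY2, DBP and PER3 did not overlap with brain, and 27.2% of all genes were lower without overlap.

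NR1D1 was 1.99-fold lower (edgeR adjusted p = 1.352e-05), PER2 1.79-fold (9.442e-07), NR1D2 1.70-fold (6.534e-07) and PER1 1.25-fold (0.001952), all with overlap. NR1D1 and PER1 were lower in 12 of 14 animals, and PER2 and NR1D2 in 14 of 14. CRY1 and BMAL1 stood higher in the ovary. CRY1 measured 16.6 to 32.1 CPM (median 25.4) against 14.0 to 20.1 CPM in brain (median 16.4) and was higher in 14 of 14 animals (1.53-fold, 1.274e-08). BMAL1 measured 35.1 to 68.5 CPM (median 47.9) against 30.2 to 37.8 CPM (median 35.7) and was higher in 13 of 14 (1.42-fold, 7.765e-07). CLOCK was called at 0.17 (0.03378), but not with RLE factors (0.06123), with the animal number as a block (0.07623) or without female brain 1 (0.07693).

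Across the 3 comparisons with brain, which use different animals, CRY2 and DBP were lower without overlap each time. NR1D1 and NR1D2 were lower in all 3, without overlap in the sperm of both species. CRY1 was higher in rat sperm and ovary and lower in sheep sperm. Whether the species differ was not tested.

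In rat brains most clock genes lay below edgeR's fitted trend of variation with abundance, and some lay above it in ovaries. The biological coefficient of variation, which edgeR estimates after counting noise, was 8.33% to 16.9% for the members in the brains of either sex. The trend at their abundance was about 14.4% to 17.2%. Those above it were PER3 in male brain (16.9% beside 15.6%), and NR1D1 (16.9% beside 14.5%) and DBP (15.4% beside 15.0%) in female brain. Many genes lie below the trend, so the share of all genes with a higher ratio to it is given as well. For CLOCK in male brain (12.6% beside 15.2%) it was 48.7%. These shares ran from 22.6% (PER3) to 92.9% (BMAL1) in male brain, and from 16.7% (NR1D1) to 79.6% (NR1D2) in female brain. In the ovary NR1D1 reached 42.5% beside a trend of 24.9%, PER3 41.7% beside 29.1%, DBP 39.4% beside 25.7% and NR1D2 29.2% beside 22.4%. PER2 was slightly above as well (31.8% beside 29.4%). Of all genes tested in the ovary, 5.37% had a higher ratio than NR1D1, 7.45% than DBP, 9.04% than PER3 and 11.5% than NR1D2. CLOCK (17.2%), CRY1 (17.1%), BMAL1 (19.2%), PER1 (23.0%) and CRY2 (23.9%) were below the trend for their abundance. Of all genes, 42.6% had a higher ratio than CLOCK, 50.7% than CRY1, 33.9% than BMAL1, 26.8% than PER1 and 25.9% than CRY2. These members were thus not unusually steady in the ovary. In rat sperm the members lay between 28.6% and 77.8%, against 59.5% to 76.7% for the trend.

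**Figure D3:**
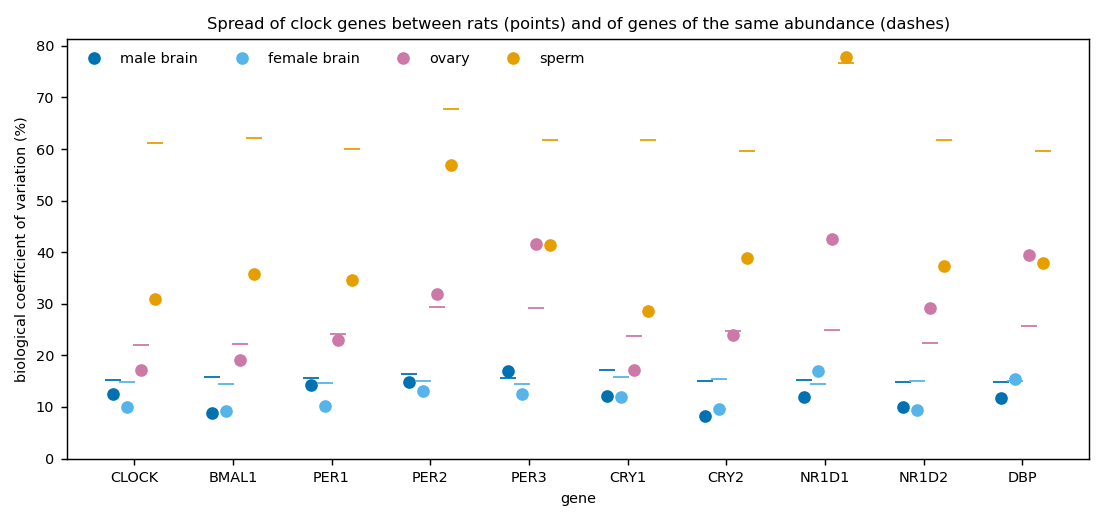
Biological coefficient of variation in percent (vertical axis) of each clock gene (horizontal axis) between animals in 4 rat groups (coloured points). Dashes mark edgeR's fitted trend at the same abundance in that group. In the ovary NR1D1, NR1D2, PER3, DBP and PER2 lie above their dashes, at 42.5%, 29.2%, 41.7%, 39.4% and 31.8%.

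The spread in the ovary came with a gap between animals. DBP measured 8.32, 9.17, 9.45 and 10.7 CPM in the ovaries of rats 23, 22, 21 and 25, and 16.3 to 38.2 CPM in the other 10. In the same 4 ovaries PER3 was at 4.79 to 6.77 CPM, whereas it was at 9.15 to 18.1 CPM in the other 10. PER1 ran the other way, at 25.0 to 37.9 CPM in the 4 and 19.1 to 24.2 CPM in the 10. DBP cannot overlap here, since the 4 ovaries were taken as its lowest values. PER3 and PER1 did not overlap between the 4 ovaries and the rest either. The share of all genes without overlap in this split was not counted, so whether it sets PER3 and PER1 apart is not known.

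NR1D2 (18.5 to 36.9 CPM against 34.2 to 63.4), CRY2 (12.7 to 17.5 against 17.1 to 28.5) and NR1D1 (7.89 to 17.8 against 13.2 to 53.5) were low in the 4 ovaries with some overlap. CLOCK, BMAL1, CRY1 and PER2 overlapped broadly. The ovary of rat 2 was the highest for DBP (38.2 CPM), NR1D1 (53.5 CPM), BMAL1 (68.5 CPM), CRY2 (28.5 CPM) and PER3 (18.1 CPM).

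A list of theca and luteal genes did not overlap between the 4 ovaries and the rest either, and its single genes are not shown. The mean log2 level of 4 theca and luteal genes (STAR, CYP11A1, CYP17A1 and LHCGR) was 6.55 to 7.17 in the 4 ovaries and 8.43 to 9.71 in the other 10. Their summed level was 2637 to 3140 CPM against 3219 to 7905 CPM. The 4 granulosa genes overlapped (mean log2 4.67 to 6.10 against 5.67 to 6.88), as did the immediate early genes (2.97 to 3.39 against 2.64 to 4.00). Overlap was also seen for the oocyte genes (1.90 to 2.52 against 2.30 to 3.86). The same held for the glucocorticoid-responsive (5.57 to 5.84 against 5.28 to 5.90) and temperature-responsive genes (6.23 to 6.48 against 5.97 to 6.42). The share of all genes without overlap was not counted. Because the 4 were picked by DBP itself, these values describe the ovaries and carry no test, and the part of the cell makeup in the clock gene levels was not tested.

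**Figure D4:**
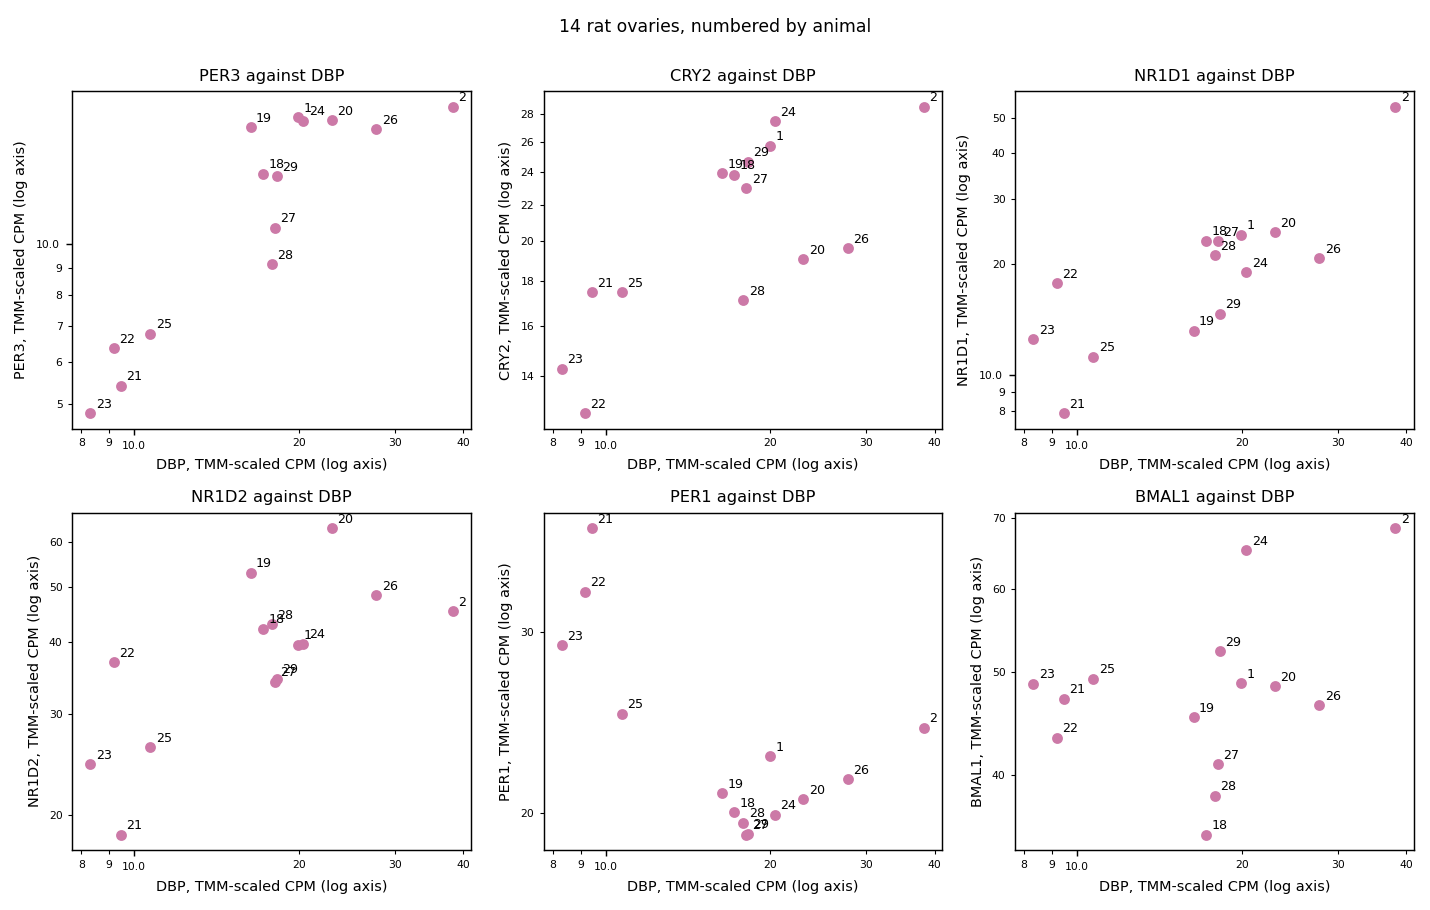
Each of 6 clock genes (vertical axes, TMM-scaled CPM on log axes) against DBP (horizontal axes, same unit, log axes) in 14 rat ovaries, numbered by animal. Ovaries 21, 22, 23 and 25 lie apart at 8.32 to 10.7 CPM of DBP, with PER3 at 4.79 to 6.77 CPM and PER1 at 25.0 to 37.9 CPM.

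To see whether members known for opposite phases varied inversely between animals, the 45 pairs were correlated within each of the 4 rat groups (180 pairs, Spearman's rho, permutation p adjusted over all 180). Of these, 5 passed. In the ovary 2 of 45 passed over all 14 animals, and 10 passed with Pearson's r. PER3 with CRY2 had rho = 0.87 (permutation p = 0.00013, adjusted 0.0135) and r = 0.81 (0.00063, adjusted 0.0216). PER3 with DBP had rho = 0.86 (permutation p = 0.00015, adjusted 0.0135) and r = 0.89 (3e-05, adjusted 0.0054). Both pairs span the gap described above. Inverse pairs that passed with r only were PER1 with PER3 (r = -0.73, adjusted 0.0379, rho = -0.35) and PER1 with DBP (r = -0.68, adjusted 0.0482, rho = -0.46). Over the other 10 ovaries 0 of 45 pairs passed with either coefficient, and 10 had an unadjusted p below 0.05 with Spearman's rho and 8 with Pearson's r. Leaving out the 4 lowest in DBP cuts the range of DBP and of genes that follow it, and leaves fewer animals. The count of 0 therefore cannot show that a relation is absent. Within the 10, PER3 and CRY2 had rho = 0.75 (permutation p = 0.0178, adjusted 0.198) and r = 0.54 (0.103, adjusted 0.28). PER3 and DBP had rho = 0.64 (permutation p = 0.0554, adjusted 0.27) and r = 0.50 (0.13, adjusted 0.316). PER1 and PER3, which run opposite ways across the gap, had rho = 0.77 (permutation p = 0.0131, adjusted 0.197) and r = 0.73 (0.018, adjusted 0.12) within the 10.

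In male rat brain 3 pairs passed. PER1 and PER2, both repressors that are induced acutely, varied together with rho = 0.80 (permutation p = 0.00066, adjusted 0.0238) and r = 0.78 (0.00098, adjusted 0.022), and r was 0.79 without the 2 libraries farthest from the median of PER1. CRY2 and NR1D1 had rho = 0.80 (permutation p = 0.00065, adjusted 0.0238) and r = 0.71 (0.0033, adjusted 0.0379), and r was 0.68 without the 2 farthest. CLOCK and DBP were inversely related, with rho = -0.82 (permutation p = 0.00046, adjusted 0.0238) and r = -0.79 (0.00083, adjusted 0.0216), and r was -0.70 without the 2 farthest.

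Male brain 4 had the lowest CLOCK level, 40.7 CPM, and the highest DBP level, 82.3 CPM. Without it and female brain 1, CLOCK with DBP had rho = -0.75 (permutation test, adjusted p = 0.0723) and PER1 with PER2 rho = 0.77 (0.0585), so that neither passed. On plain library totals the inverse relation of CLOCK and DBP was not seen (rho = -0.05, adjusted p = 0.886).

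CLOCK and DBP also moved with the main axis of variation in these brains. The first principal component of all genes held 35.5% of the variance, and CLOCK followed it with rho = -0.81 (permutation p = 0.0003, adjusted over 40 relations 0.0076) and r = -0.80 (1e-05, adjusted 0.0002). DBP followed it with rho = 0.80 (permutation p = 0.00058, adjusted 0.00773) and r = 0.66 (0.00268, adjusted 0.0214). Of all genes, the 500 most like DBP in male brain had a median gene span of 5.92 kb and the 500 least like it 73.8 kb. Dbp itself spans 4.95 kb and Clock 84.1 kb. Female brain gave 10.7 and 73.3 kb. With the first component removed, CLOCK and DBP had rho = -0.59 (permutation test, adjusted p = 0.165). What that component stands for was not tested, nor was the part of gene span in the relation of CLOCK and DBP.

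In female rat brain 0 of 45 pairs passed with Spearman's rho (10 at an unadjusted permutation p below 0.05) and 4 passed with Pearson's r. The activator BMAL1 and the repressor NR1D2 were the pair of lowest rho, at -0.69 (permutation p = 0.0075, adjusted 0.0972), with r = -0.82 (0.00022, adjusted 0.0198) and r = -0.75 without the 2 farthest. BMAL1 and PER1 had rho = 0.73 (permutation p = 0.00421, adjusted 0.086) and r = 0.76 (0.0017, adjusted 0.028), and r was 0.72 without the 2 farthest. BMAL1 and NR1D1, which are known for opposite phases, gave no inverse relation that passed: rho was 0.26 in male brain (permutation p = 0.356, adjusted 0.654), 0.29 in female brain (0.318, adjusted 0.609), 0.54 in sperm (0.0422, adjusted 0.205) and 0.12 in the 10 ovaries (0.757, adjusted 0.898). Pearson's r was 0.27, 0.32, 0.14 and 0.34 (adjusted p = 0.522, 0.483, 0.686 and 0.551, permutation tests). Over all 14 ovaries the sign of rho turned (-0.08, permutation p = 0.785, adjusted 0.896), while r was 0.21 (0.471, adjusted 0.643) and -0.46 without the 2 farthest. In rat sperm 0 of 45 pairs passed with rho (9 unadjusted) and 6 with r.

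Inverse pairs of BMAL1 that passed with Pearson's r only were BMAL1 with NR1D2 in female brain, given above, and 1 pair each in sperm and male brain. BMAL1 and PER3 in sperm had r = -0.77 (permutation p = 0.00495, adjusted 0.0387) and rho = -0.68 (0.00647, adjusted 0.0972), and r was -0.43 without the 2 farthest. BMAL1 and CRY1 in male brain had r = -0.72 (permutation p = 0.00367, adjusted 0.0379) and rho = -0.58 (0.0243, adjusted 0.168), and r was -0.38 without the 2 farthest. Without the 2 farthest, rho was -0.53 for the pair in sperm and -0.40 for the pair in male brain. Leaving out the libraries farthest in BMAL1 narrows its range, which can lower a correlation in itself. Whether the relations rest on those libraries is therefore not known.

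**Figure D5:**
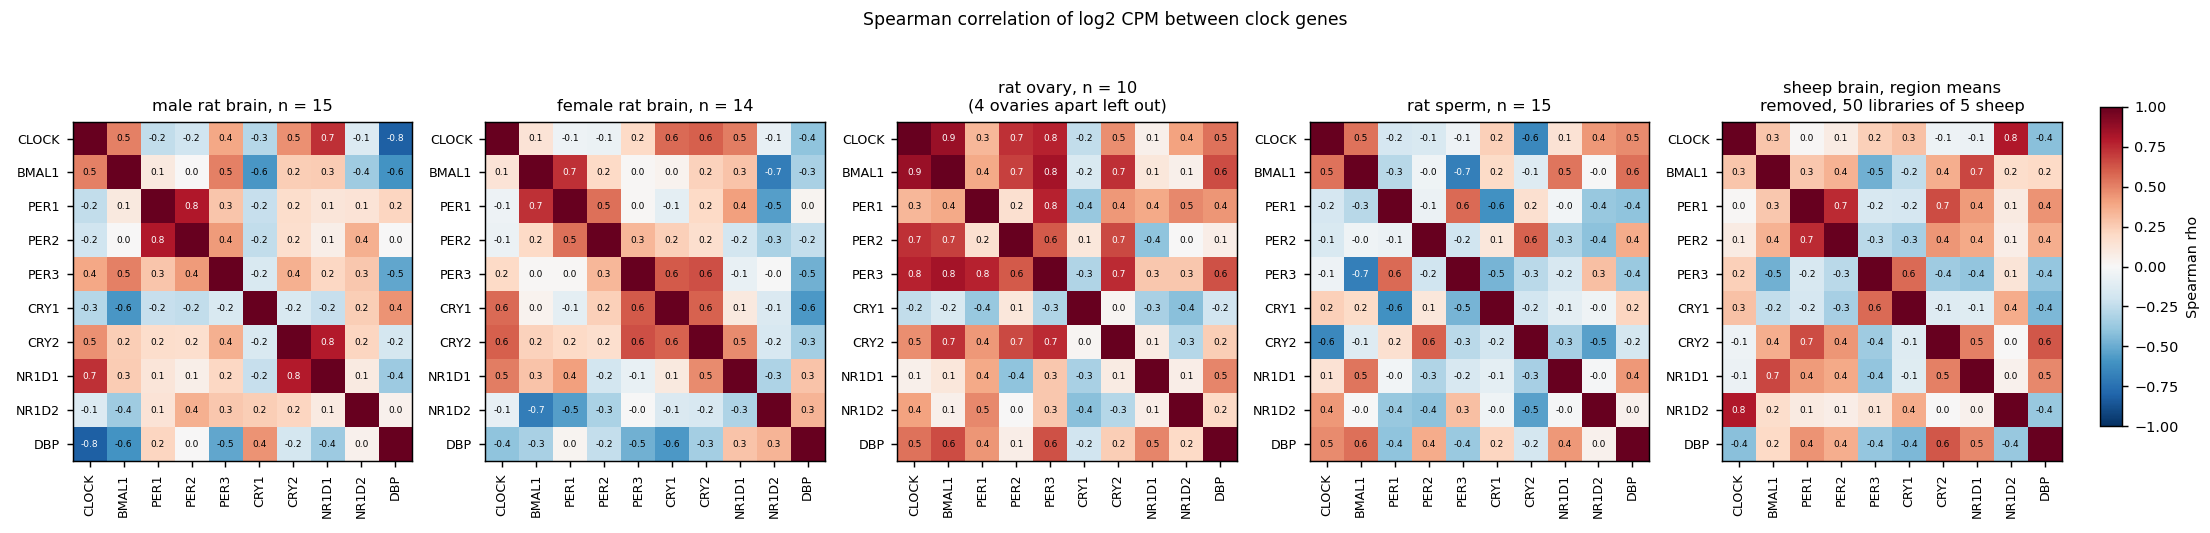
Spearman's rho between clock genes (both axes list the 10 genes, colour and printed value give rho) in male and female rat brain, in 10 rat ovaries after leaving out the 4 that lie apart, in rat sperm, and in 50 sheep brain libraries after removing region means. PER1 with PER2 is positive in male rat brain (0.80) and in sheep brain (0.75), and CLOCK with DBP is negative in male rat brain (-0.82).

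Marker lists and lists of responsive genes were set beside the members in the same way (440 relations in 4 groups, of which 16 passed, 4 of them over all 14 ovaries). Each list entered as the mean log2 level of its genes in a library, so a relation does not describe each gene. Lists of cells foreign to the brain passed there too: CLOCK was inverse to the granulosa genes in male (rho = -0.76, permutation test, adjusted p = 0.0467) and female brain (-0.80, 0.0363), and NR1D2 followed the epididymal genes in male brain (0.81, 0.0323). These lists were near the floor. The epididymal genes summed to 0.0965 to 0.709 CPM in male brain, with 0 of 4 at 1 CPM on average. The granulosa genes summed to 6.47 to 13.2 CPM in male brain (2 of 4 at 1 CPM) and 6.21 to 13.9 CPM in female brain (1 of 4). In the brains CLOCK followed the neuronal markers, with rho = 0.78 in males (permutation p = 0.00093, adjusted 0.0363; r = 0.78, 0.00098, adjusted 0.024; 0.65 without the 2 farthest) and rho = 0.83 in females (0.00044, adjusted 0.0323; r = 0.88, 3e-05, adjusted 0.0088; 0.72 without the 2 farthest). CLOCK was inverse to the mean of 4 temperature-responsive genes (CIRBP, RBM3, HSPA1A and HSPH1), which were not correlated singly. In males rho was -0.85 (permutation p = 0.00013, adjusted 0.0323) and r was -0.77 (0.0003, adjusted 0.0164). In females rho was -0.80 (permutation p = 0.00089, adjusted 0.0363) and r was -0.86 (4e-05, adjusted 0.0088). Without the 2 farthest r was -0.78 in both. In female brain PER1 followed the immediate early genes, with rho = 0.79 (permutation p = 0.00129, adjusted 0.0405) and r = 0.70 (0.00485, adjusted 0.0543), and r was 0.69 without the 2 farthest. NR1D1 followed the neuronal markers in male brain with rho = 0.83 (permutation p = 0.00026, adjusted 0.0323) and r = 0.82 (0.00038, adjusted 0.0164), and r was 0.74 without the 2 farthest.

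No relation between the tissues of an animal passed the test for any member. Brain was set against ovary in 14 females and against sperm in 15 males, joined by the number in the labels, for 20 relations. None passed with either coefficient, 0 had an unadjusted permutation p below 0.05, and the lowest adjusted p was 0.761. For NR1D2 rho was 0.43 between female brain and ovary (permutation p = 0.123) and -0.44 between male brain and sperm (0.108).

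Genes most like DBP or BMAL1 were ranked over all genes of at least 5 CPM. Over the 15 male rat brains Pop5 (rho = 0.95), Oaz1 (0.94) and Ydjc (0.93) were most like DBP, and Afdn (-0.95), Ppp6r3 (-0.94) and Adam19 (-0.94) least. Over the 14 female brains Kiaa1191 (0.98) and Tifa (0.96) were among the genes most like DBP. For BMAL1 these were Cux2 (0.90), Ptprk (0.85) and R3hdm1 (0.84) in male brain, and Epop (0.85), Mef2c (0.85) and Npas2 (0.85) in female brain. NPAS2 is a paralogue of CLOCK that also pairs with BMAL1. In rat sperm Mbd2 (0.95) led for DBP, and Slc44a1 and Lcor (both 0.91) for BMAL1. In sheep brain with region means removed C17H22orf39 (0.89) was most like DBP and KIAA1549L (0.83) most like BMAL1. NR1D1 ranked 150 of 11148 genes in likeness to BMAL1 there. These ranks describe the libraries, which share depth and composition.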

How the data were processed

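Gene counts were the deposited values: per the labels and the series' design text, the authors trimmed reads with Trimmomatic v0.39, aligned them with STAR v2.7.5a to ARS-UI_Ramb_v3.0 (sheep) or GRCr8 (rat) and counted them with Rsubread v2.20.0, from stranded mRNA libraries read in pairs. No source used here states the strand setting or the treatment of reads that map to several places. The 10 members and all lists were chosen with earlier results of these data known. All 10 members are named in every comparison. The wider clock list is named by at most the 3 called genes of largest fold in each direction, and likeness by the 3 highest and lowest rho with DBP and with BMAL1 (in part shown here, and not for the ovary, where 4 animals lie apart). Some genes that this rule names are not reported here.

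Counts were tested in R 4.3.3 with edgeR 4.0.16 (filterByExpr, TMM, quasi-likelihood F test, two-sided, Benjamini-Hochberg over all genes, called at an adjusted p below 0.05 with no minimum fold). Region contrasts set 1 region against the mean of the other 9. Alternatives used RLE and upper quartile factors, no filter, DESeq2 1.42.0, limma 3.58.1 (voom with quality weights), a fold minimum, the animal as a block and each sheep left out. The scripts were tested on simulated counts. Correlations used log2 CPM (prior count 2) within a group and two-sided permutation tests with 100000 resamples (Python 3.11.15). Leaving out the 4 ovaries lowest in DBP, and leaving out female brain 1 with male brain 4, were chosen after seeing the data. No pair of libraries in a group agreed within sampling noise (chi-square per degree of freedom of at least 12.4). Nothing says that the rats came from separate cages or batches, so p-values of the rat tests measure the spread between these animals. The main sheep tests of region and of sperm took the libraries of a sheep as separate samples, so their p-values do not measure the spread between sheep. The animal entered those tests only as a block among the alternatives. The main rat tests of 1 tissue against another likewise left out the animal number. Sheep numbers name the animal, so they pair its tissues. Rat numbers join tissues by label, and same-numbered deviations correlated by a median of 0.061 (brain and sperm, 15 pairs) and 0.00893 (brain and ovary, 14 pairs).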

Additional observations from a re-analysis of the deposited data

Results flagged for a closer look

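In 110 groups of 5 sheep libraries (10 members in 11 tissues) 1 library lay apart from the other 4 in 12. A chance rate of about 1 in 20 would hold for independent groups. The members were read in the same libraries, so no excess over chance can be read from this count. Sheep 687 stood high in visual cortex for PER2 (18.84 CPM, others 12.68 to 14.36), NR1D1 (25.77 CPM, others 14.4 to 17.32) and CRY2 (97.0 CPM, others 77.69 to 82.01). Sheep 688 stood high in posterior parietal cortex for PER2 (15.98 CPM, others 11.14 to 12.39) and BMAL1 (11.6 CPM, others 6.848 to 8.088), and alone had PER2 in sperm (0.5654 CPM, others 0). Sheep 699 was low for PER2 in prefrontal cortex (10.47 CPM, others 13.75 to 14.3) and for NR1D1 in motor cortex (11.18 CPM, others 16.85 to 17.74), and high for CRY2 in basal ganglia (89.04 CPM, others 60.99 to 68.09). Sheep 694 was high for BMAL1 in pons (7.856 CPM, others 5.058 to 5.838) and for NR1D2 in prefrontal cortex (61.4 CPM, others 46.72 to 50.25). Sheep 690 was low for CRY1 in prefrontal cortex (7.523 CPM, others 8.293 to 8.59). No explanation was tested for these libraries.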

How the results depend on the processing

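Over 94 results and 1020 alternatives, 6 values changed sign. BMAL1 in sheep sperm went from 0.057 to -0.097 on the log2 scale with no filter (adjusted p = 0.6176), to -0.12 with voom (0.8445) and to -0.16 without sheep 694 (0.3678). Leaving out each sheep in turn gave -0.16 to 0.202. PER1 in sheep sperm went to 0.31 with upper quartile factors (0.02386). PER1 in rat sperm went to -0.035 with RLE factors (0.7896) and to -0.036 with DESeq2 (0.8112). The cause was not tested, apart from the shift of all genes given with each scaling.

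With a minimum fold of 2, which removes calls by construction, the region contrasts kept 5 of 29 calls (PER2, CRY1 and NR1D1 in cerebellum, PER2 and DBP in pons), and rat sperm and ovary 3 each. Between sheep, the count of 0 became 1 with DESeq2, 4 with voom and 1 without basal ganglia, cerebellum and pons (BMAL1, adjusted p = 0.04573). Of the 180 rat pairs, 5 passed as reported, 25 with Pearson's r, 72 on plain library totals, 0 without the 2 libraries farthest from the median of the first gene, and 3 without the 4 ovaries. In sheep brain 7 pairs of |r| of 0.5 or more became 15 on plain totals. Plain totals leave differences in composition in every gene, and the cause of the other changes was not tested. Leaving out each sheep gave 9 to 10 calls across regions, 20 to 26 in region contrasts, 0 to 1 between sheep, 8 to 9 in sperm, and 7 to 11 sheep pairs (11 without sheep 687).

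With the replicate block (the animal number as a term) the counts were 10 across regions, 30 in region contrasts, 9 in sheep sperm, 8 in rat sperm and 9 in ovary. It ended the calls of CLOCK and PER1 in rat sperm and of CLOCK in ovary, and no other member lost a call in those 3 comparisons. In the rats the samples shared only a number: deviations of the same number correlated over 0.1 in 4 of 15 pairs of brain and sperm and in 1 of 14 pairs of brain and ovary, and 2 and 3 libraries matched their own number best.

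Of all genes, voom called 8201 between sheep beside 4558 with edgeR, the 5 neocortical regions alone 1997, and leaving out sheep 690 gave 2887. With no filter 14827 genes were called higher and 10512 lower in rat sperm, beside 7739 and 8029. Depth limits PER2, NR1D1, CRY1, DBP and CRY2 in sheep sperm, where counts were 7, 22, 87, 101 and 126 over 5 libraries. The hour of collection is unknown, so phase could not be compared.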

Other observations

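Other genes of the clock were read from a list of 17 (among them NPAS2, RORA, RORB, BHLHE40, BHLHE41, TEF, HLF, NFIL3, CIART, TIMELESS, CSNK1D, CSNK1E, USP2 and NOCT), of which 16 were tested in sheep. Across sheep regions 15 of 16 were called (edgeR, background 76.7%), with a median largest difference of 1.59 on the log2 scale beside 1.26 over all genes. In the cerebellum 6 were higher and 4 lower (background 29.1% and 31.6%). NFIL3, a repressor at D-boxes, was higher by 1.20 ± 0.13 (SE, edgeR adjusted p = 6.553e-11), RORA, an activator of BMAL1, by 0.99 (1.013e-06) and BHLHE41 by 0.37 (0.01174). NPAS2 (-1.81, 2.878e-14) and RORB (-1.70, 0.0002262) were lower there. The cerebellum thus held more of 9 of the 10 members and less of the CLOCK paralogue NPAS2.

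In the pons 9 of 16 were lower and 2 higher (background 22.6% and 25.7%). NPAS2 (-1.59, edgeR adjusted p = 3.549e-12) and the PAR bZIP factors TEF (-1.37, 5.537e-12) and HLF (-1.24, 4.345e-10), which bind D-boxes as DBP does, were lower. BHLHE41 (1.22, 1.671e-11) was higher. In the basal ganglia TEF (0.94, 6.645e-10), CIART (0.96, 6.681e-05) and NPAS2 (0.75, 1.802e-06) were higher, beside DBP. Between sheep 3 of 16 were called, among them BHLHE40 (largest log2 difference 0.64, edgeR adjusted p = 0.02854) and NOCT (0.55, 0.01647), where 21.6% of all genes were called.

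Against brain, RORB and HLF were low in each reproductive tissue. In sheep sperm 6 of 16 were higher and 9 lower (background 37.1% and 46.3%): NFIL3 (6.24, edgeR adjusted p = 2.885e-34), TIMELESS (4.92, 2.489e-29) and CSNK1E (4.66, 1.215e-32) were highest, and HLF (-6.32, 1.147e-20) and TEF (-5.70, 5.331e-30) were among the lowest, while RORB had 0 counts in all 5 sperm libraries (2.264e-10). In rat sperm 3 of 17 were higher and 9 lower (background 37.8% and 39.2%): CSNK1D (2.16, edgeR adjusted p = 0.002629) and USP2 (1.32, 0.0009044) were among the higher, and RORB (-6.88, 1.125e-10), BHLHE41 (-5.42, 9.879e-14) and HLF (-3.38, 6.653e-18) were lowest. In the ovary 5 of 17 were higher and 11 lower (background 44.7% and 43.9%): TIMELESS (2.69, edgeR adjusted p = 2.189e-18) and RORA (1.27, 8.154e-12) were among the highest, and RORB (-5.50, 1.026e-18), HLF (-4.75, 1.791e-23) and CIART (-4.22, 6.718e-21) lowest. Neutrophil and squamous markers in the sheep sperm libraries are given with the members, and their part in these values was not tested.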
